A study of Mus musculus with 24 samples.

Results

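The 10 genes described here, Cib3, Lgi3, Grin2c, Cdh16, Dcxr, Cyb5, Impa2, Ralgapa2, Pth1r and LOC640020, were chosen from measured values: each differed between hearts with and without a GLUT4 transgene in mice that had not been made diabetic. They are 10 of the 36413 gene names on the arrays and of the 28232 genes tested. They are read by 12 probes, since Ralgapa2 has 3 probes and every other member has 1. The question put to them was which members keep that difference in mice given streptozotocin (STZ), and which of them STZ moves the same way as the transgene.

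RNA came from the left ventricles of 24 male mice, 6 mice in each of 4 groups, and every ventricle was hybridised to an array of its own. CON mice are the controls of the transgenic line, without a fuller description in the labels. mG4H mice carry an inducible GLUT4 transgene expressed in cardiomyocytes, whose promoter the labels do not name. CON_STZ and mG4H_STZ mice were injected with STZ at 55 mg per kg on 5 consecutive days, and CON_VEH and mG4H_VEH mice with citrate buffer. The transgene was induced 2 weeks after STZ and hearts were taken after another 2 weeks. At least 1 pair of siblings was split between groups, and the labels do not say which mice they were. Blood glucose at 4 weeks lay between 117 and 164 in the vehicle groups and between 500 and 601 in the STZ groups, without a stated unit.

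GLUT4, encoded by Slc2a4, is the insulin-responsive glucose transporter of heart and skeletal muscle. Insulin brings it to the cell surface by exocytosis, a step in which Ral GTPases and the exocyst take part, and STZ lowers insulin by killing pancreatic beta cells. The 10 members belong to no single pathway. Lgi3 encodes a secreted leucine-rich repeat protein, Pth1r the receptor for parathyroid hormone and its related peptide, Grin2c a subunit of NMDA-type glutamate receptors, and Cdh16 a cadherin best known from kidney epithelium. Cib3 encodes a calcium- and integrin-binding protein, and Ralgapa2 the catalytic subunit of a complex that switches Ral GTPases off. Dcxr, Cyb5 and Impa2 encode enzymes or electron carriers, and LOC640020 is a predicted transcript that the array describes as similar to a mucin.

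For LOC640020 the probe is its only definition, since the array file gives it no genome position. Its first 30 bases are shown with the whole probes of Cib3, the member with the largest difference under vehicle, and of Dcxr and Pth1r, a member lower and a member higher in transgenic hearts. The capitals in the Dcxr probe mark the stretch from a tyrosine codon to a lysine codon in a reading frame without a stop, the spacing of the active-site pair of short-chain dehydrogenases, the enzyme family of Dcxr.
LOC640020: aagtcagcgagtgtctagttccccatataa
Cib3: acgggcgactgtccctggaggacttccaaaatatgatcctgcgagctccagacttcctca
Dcxr: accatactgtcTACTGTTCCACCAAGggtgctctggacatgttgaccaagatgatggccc
Pth1r: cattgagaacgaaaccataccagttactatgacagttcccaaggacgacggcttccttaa
The Cib3 probe lies on chromosome 8 at 74729463 to 74729522 of the mouse build mm9 and the Pth1r probe on chromosome 9 at 110624846 to 110624905. The Dcxr probe, on chromosome 11, spans 141 bases of the genome, from 120587276 to 120587416, for its 60 bases. Each of these 3 probes lies on the minus strand. Which exon or untranslated region each probe reads was not analysed, for want of an mm9 annotation here.

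Every member was well above background on all 24 arrays, and no value was saturated or missing. Values are log2 processed signal minus the log2 of the array's 75th percentile, so a level of 0 equals that percentile. The percentile ranged over the arrays from 370 to 583, with 58.5% to 76.3% of the spots above background. Slides accounted for 86.7% of the first principal component, which held 43.0% of the variance. Slides 1 to 3 held mice of every group, and slide 4 held only replicate 3 of CON_VEH and of mG4H_VEH. In bulk tissue, fewer cells of a type and less RNA per cell cannot be told apart. The summed level of 8 cardiomyocyte markers lay between 11.24 and 11.75 in all 24 ventricles. Other lists varied more. The summed level of 6 atrial markers lay between 5.18 and 5.67 in CON_VEH, 4.49 and 6.86 in mG4H_VEH, 6.41 and 8.51 in CON_STZ, and 5.98 and 9.03 in mG4H_STZ. Under vehicle the atrial genes Myl4, Sln and Dkk3 were 1.47, 1.097 and 0.78 higher in mG4H, and Nppa and Bmp10 were at -0.37 and -0.17. Myl7, above background on 11 arrays, was at 1.23. With STZ, averaged over both genotypes, Nppa, the brightest of the 6 (mean level 6.05), was 2.18 higher (limma, adjusted p = 0.000113). Myl4, Sln and Myl7 were at -0.54, -0.41 and -0.85, and Bmp10 and Dkk3 at 0.20 and 0.25, none of which passed. Red blood cell markers, 4 summed, lay between 7.71 and 9.16 in the groups other than mG4H_STZ and between 4.97 and 9.99 in mG4H_STZ. The part of these cells in the members' values was not tested.

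Slc2a4 was checked first. Its level was 6.73 ± 0.15 (SD, n = 6) in CON_VEH and 6.54 ± 0.10 in mG4H_VEH, a difference of -0.20 ± 0.16 (SE). Under STZ it was 6.16 ± 0.31 in CON and 6.36 ± 0.43 in mG4H, a difference of 0.20 ± 0.16 that did not pass the test (limma, adjusted p = 1). Its probe therefore did not set the transgenic ventricles apart, and the labels do not say whether it reads the transgene. Averaged over both genotypes, Slc2a4 fell by 0.38 with STZ (adjusted p = 0.0345).

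Of the 10 members, LOC640020 was the only one whose genotype difference passed the test in STZ mice, 2.16-fold lower in mG4H_STZ than in CON_STZ. Lgi3 was 1.90-fold and Ralgapa2 1.27-fold higher in mG4H_STZ, and Cib3 1.69-fold lower, in the same direction as under vehicle but short of the threshold. The other 6 members differed between the STZ groups by 0.29 or less on the log2 scale. STZ itself, averaged over both genotypes, lowered Lgi3, Ralgapa2, Cib3 and Cyb5 and raised Impa2. Within mG4H, given as values without a test, STZ minus vehicle was -1.23 for Lgi3 and -0.60 for Ralgapa2. There it was 0.20 for Cib3, -0.02 for Cyb5 and 0.10 for Impa2, whose values within CON were -1.29, -0.35 and 0.91. The Cib3 and Cyb5 calls were kept in 20 and 14 of 38 alternative settings.

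**Figure D1:**
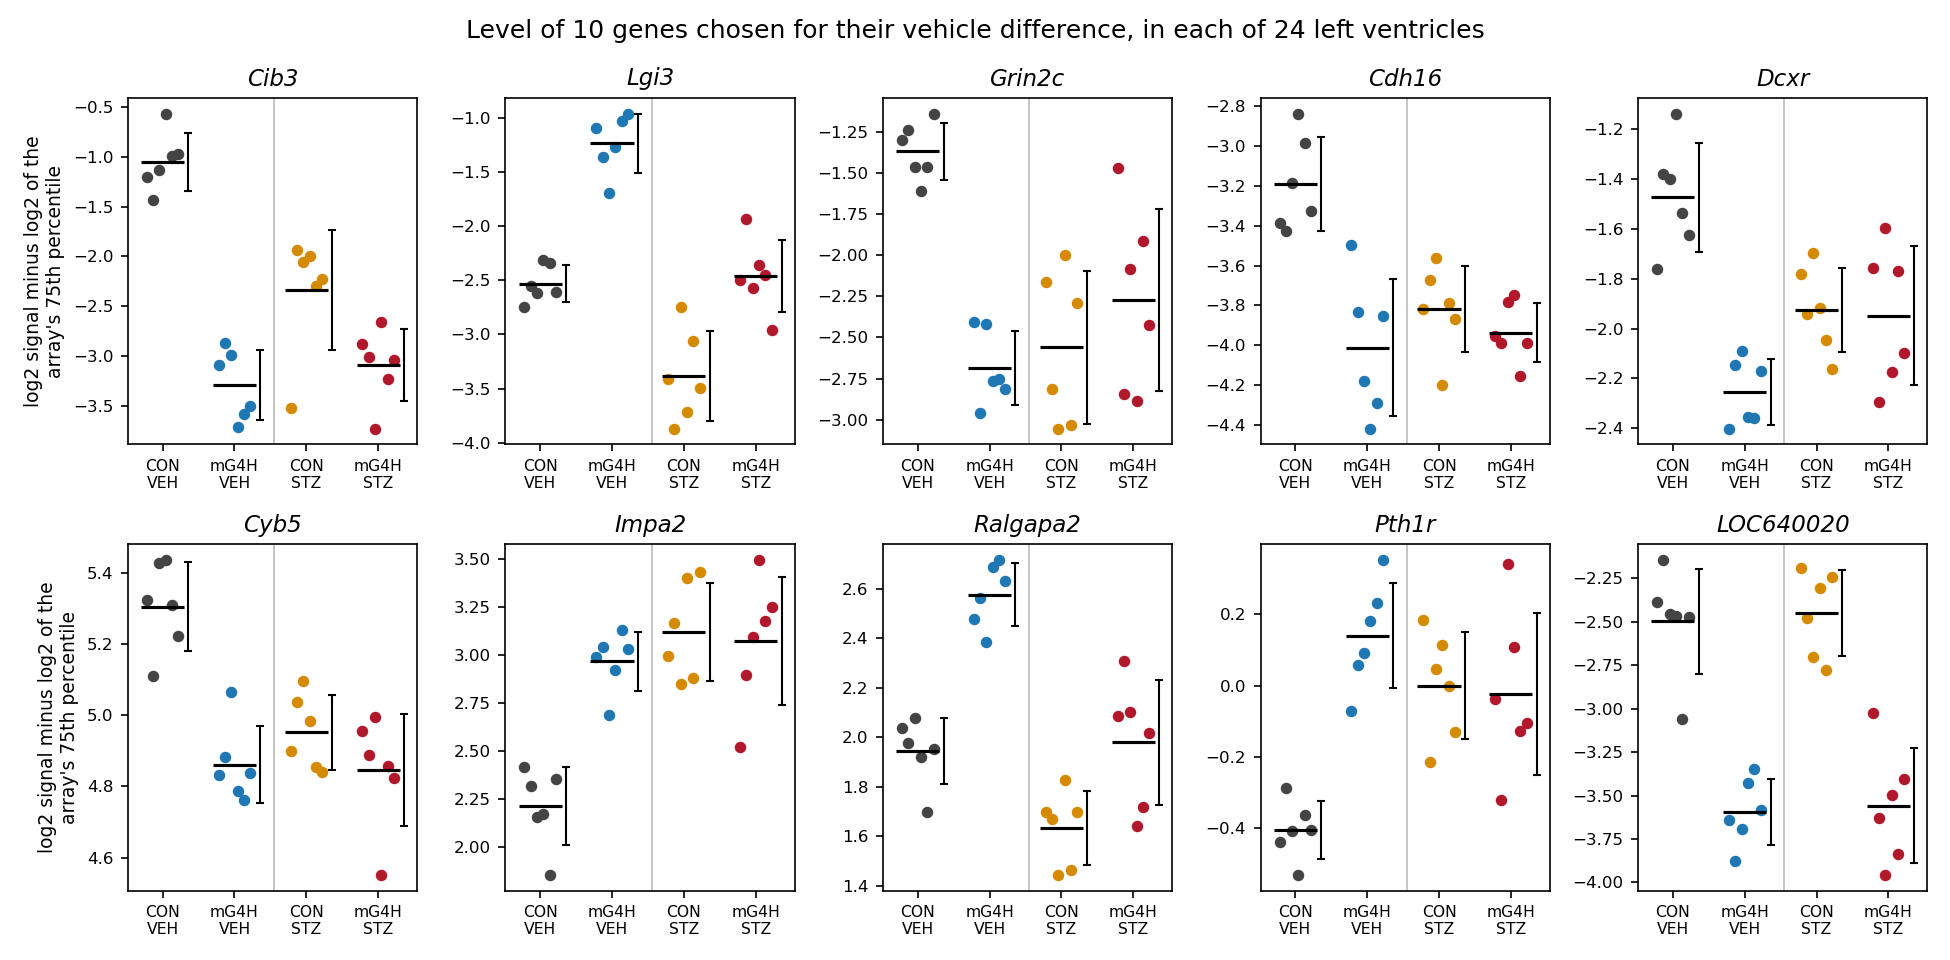
Each panel plots 1 gene, with the log2 level against the array's 75th percentile on the vertical axis and the 4 groups along the horizontal axis. Points are single mice, lines are means and bars are the SD over 6 mice. LOC640020 separates by genotype under both treatments, Lgi3 and Ralgapa2 lie highest in mG4H_VEH, and for Impa2, Cdh16 and Cyb5 the CON_VEH mice stand apart from the other 3 groups.

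The difference under vehicle chose the members and is given as a description only. In this fit, with the threshold at an adjusted p of 0.05 over all genes, 23 of 28232 genes passed for mG4H_VEH against CON_VEH (0.0815%), 10 higher and 13 lower. The 10 members are among them, with 4 higher (Lgi3, Impa2, Ralgapa2, Pth1r) and 6 lower (Cib3, Grin2c, Cdh16, Dcxr, Cyb5, LOC640020). That count of 10 depended on the processing: it was 2 with median scaling, 5 with body weight as a covariate and 6 without slide 4. Over all genes 8, 12 and 14 of 28232 passed in these settings, in place of 23. Over 38 alternative settings Impa2 passed in 24, Cyb5 in 25, Pth1r in 26 and Cdh16 in 27, and the other members in 35 or more. These settings include leaving out each of the 12 STZ arrays, which alters only the spread and not the vehicle difference. All 10 members passed in each of those fits. The differences ran from -2.24 for Cib3 to 1.30 for Lgi3 on the log2 scale, with -0.44 for Cyb5 the smallest in size. In each member's brightest probe the mice of the 2 vehicle groups did not overlap, which the choice of members favours. The share of all genes without such an overlap is not given here.

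Under STZ the same genotypes were tested. Their difference uses only the 12 STZ arrays, which had no part in the choice. The spread it is judged against comes from all 24 arrays, the vehicle arrays that chose the members included, so the test is not fully independent of the choice. With only the 12 STZ arrays fitted, 0 of 10 members passed limma's test (LOC640020 adjusted p = 0.383), and 4 had an unadjusted p under 0.05. Over all genes 0 of 28232 passed in that fit. In the fit of all 24 arrays 3 of 28232 genes passed (0.0106%), 2 higher and 1 lower in mG4H_STZ. The lower one is LOC640020, so 1 of 10 members passed, and 4 members had an unadjusted p under the same 0.05 threshold. The median size of the difference over the 10 members was 0.20 on the log2 scale, beside 0.11 over all genes tested, and 7 members had the sign they had under vehicle. The shares of all genes at an unadjusted p under 0.05, or with the sign they had under vehicle, are not given here.

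STZ against vehicle, averaged over both genotypes, was tested as well, since with equal groups that average is uncorrelated with the difference that chose the members, although it shares the same estimate of the spread. Of 28232 genes 2908 passed (10.3%), 1274 higher and 1634 lower. Among the members 5 of 10 passed, 1 higher and 4 lower, and 7 had an unadjusted p under 0.05, a cut for which the share of all genes is not given. Their median size was 0.33, beside 0.15 over all genes. The STZ effects within CON and within mG4H share their vehicle mice with the choice of members and are given as values without a test. Gene lists for the members' families and pathways held 104 further measured genes. Of these 0 passed limma's test between the genotypes under STZ, with 3 at an unadjusted p under 0.05, and 6 rose and 10 fell with STZ. For the STZ average 31 of the 104 had an unadjusted p under 0.05 in limma. Their median STZ difference was 0.03, beside 0.05 over all genes.

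**Figure D2:**
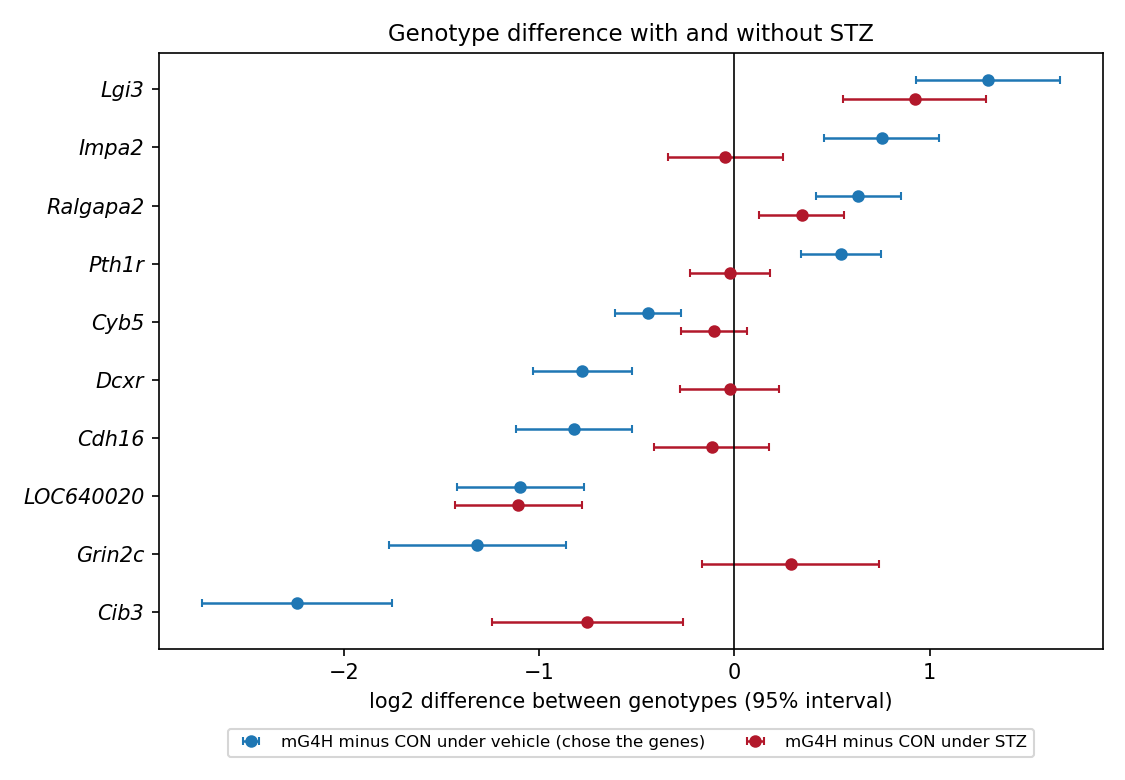
The horizontal axis is the log2 difference mG4H minus CON and each row is 1 gene, with 95% intervals from the fit of 24 arrays. The vehicle difference chose the genes. Under STZ, LOC640020 lies at -1.11, close to its vehicle value of -1.10, while Impa2, Pth1r, Dcxr, Cdh16, Cyb5 and Grin2c have intervals that include 0.

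LOC640020 had levels of -3.06, -2.46 and -2.14 (lowest, median and highest mouse) in CON_VEH and of -3.88, -3.61 and -3.35 in mG4H_VEH. The corresponding levels under STZ were -2.78, -2.39 and -2.19 in CON_STZ and -3.96, -3.56 and -3.03 in mG4H_STZ. All 6 mG4H_STZ mice lay below all 6 CON_STZ mice, and the transgenic and control mice were separated under both treatments. The difference under STZ was -1.11 ± 0.16 (SE; 95% interval -1.43 to -0.78), with limma's adjusted p = 0.00627, and it was -1.35, -0.99 and -0.99 within slides 1, 2 and 3. The STZ effect was 0.04 on average (95% interval -0.19 to 0.27; adjusted p = 0.883), 0.05 within CON and 0.04 within mG4H. The call of the genotype difference under STZ was lost with quantile normalization (-1.13, adjusted p = 0.265), with median scaling (-1.13, adjusted p = 1) and when only the 12 STZ arrays were fitted (-1.11, adjusted p = 0.383). With normexp background correction the difference shrank to -0.48 (adjusted p = 0.0704).

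Lgi3, the secreted protein, was higher in mG4H than in CON hearts under vehicle, and lower after STZ in both genotypes. Its lowest, median and highest levels were -2.75, -2.58 and -2.31 in CON_VEH and -1.69, -1.18 and -0.96 in mG4H_VEH. Under STZ they were -3.87, -3.46 and -2.74 in CON and -2.96, -2.47 and -1.93 in mG4H. Of the 6 mG4H_STZ mice, 5 lay above every CON_STZ mouse, and mG4H_STZ mice reached about the level of CON_VEH mice: the group means of -2.46 and -2.53 differed by less than their SDs of 0.33 and 0.17.

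The genotype difference of Lgi3 under STZ was 0.92 ± 0.18 (SE; 95% interval 0.55 to 1.29). It ranked 5 among all genes by p but did not pass (adjusted p = 0.164). It passed with quantile normalization (0.91, adjusted p = 0.00617), with array weights (1.15, adjusted p = 0.00804) and without CON_STZ replicate 3 (1.05, adjusted p = 0.0165). Within slides 1, 2 and 3 it was 0.90, 1.43 and 0.44. With STZ Lgi3 was 2.06-fold lower on average, a log2 difference of -1.04 ± 0.13 (SE) (adjusted p = 2.8e-05), with -0.85 within CON and -1.23 within mG4H. All 6 mG4H_STZ mice lay below all 6 mG4H_VEH mice, while the CON groups overlapped.

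Markers of Schwann cells and neurons, cells in which Lgi proteins are known to act, were measured beside Lgi3. Their summed level lay between 2.91 and 3.15 in CON_VEH, 3.08 and 3.52 in mG4H_VEH, 2.38 and 2.92 in CON_STZ, and 2.21 and 3.11 in mG4H_STZ. Of the 10 markers 1 passed for the STZ average, Dbh, the noradrenaline-synthesising enzyme, at -1.19 (adjusted p = 0.0253), and 0 passed limma's test for the genotypes under STZ, also at an unadjusted p under 0.05. The glial transcription factor gene Sox10 had an STZ difference of 0.17 that did not pass (adjusted p = 0.726). The part of these cells in the Lgi3 result was not tested.

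In the list of the Lgi family and its receptors, 1 of 7 genes passed for STZ: Lgi1, a synaptic relative, fell by 1.05 ± 0.25 (SE) (adjusted p = 0.00884). The list's median was 0.02. The Lgi3 probe lies on chromosome 14 at 70937619 to 70937678, on the plus strand.

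Pth1r, the parathyroid hormone receptor, signals mainly through stimulatory G proteins. Its lowest, median and highest levels were -0.53, -0.41 and -0.29 in CON_VEH and -0.07, 0.14 and 0.35 in mG4H_VEH. Under STZ they were -0.21, 0.02 and 0.18 in CON and, in mG4H, -0.32, -0.07 and 0.34. All 6 CON_STZ mice lay above all 6 CON_VEH mice, and the 2 STZ groups overlapped almost fully. The genotype difference under STZ was -0.02 (95% interval -0.23 to 0.18; adjusted p = 1), beside 0.55 under vehicle. STZ minus vehicle was 0.41 within CON and -0.16 within mG4H, an average of 0.12 (95% interval -0.02 to 0.27; adjusted p = 0.342). In the order of the means, mG4H_VEH, CON_STZ and mG4H_STZ were neighbours that differed by less than their SDs, and only CON_VEH lay lower.

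Of 13 measured genes of parathyroid hormone receptor signalling, 1 passed for STZ. Pthlh, which encodes a ligand of the receptor, rose by 0.70 ± 0.22 (SE), at an adjusted p of 0.05 to 3 digits (adjusted p = 0.04999). The list's median STZ difference was 0.13.

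Grin2c, the NMDA receptor subunit, varied more among STZ mice (SD 0.47 in CON and 0.55 in mG4H) than among vehicle mice (SD 0.17 and 0.22). Its lowest, median and highest levels were -1.61, -1.38 and -1.14 in CON_VEH and -2.96, -2.76 and -2.41 in mG4H_VEH. CON_STZ mice had -3.05, -2.55 and -1.997, and mG4H_STZ mice -2.88, -2.25 and -1.47. Every CON_STZ mouse lay below every CON_VEH mouse. Under STZ the sign of the genotype difference turned, to 0.29 ± 0.22 (SE; 95% interval -0.16 to 0.74; adjusted p = 1), a value within the spread. STZ minus vehicle was -1.19 within CON and 0.42 within mG4H, and the average of -0.39 did not pass (adjusted p = 0.123). It passed without mG4H_STZ replicate 1 (-0.47, adjusted p = 0.0379).

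Among 11 measured glutamate receptor genes, 2 fell with STZ and 0 rose. Grin3b, another NMDA receptor subunit, fell by 1.30 ± 0.13 (SE) (adjusted p = 1.2e-05), and Grik4, a kainate receptor subunit, by 0.47 ± 0.15 (adjusted p = 0.0493). The list's median was 0.05, the same to 2 decimals as that over all genes. The Grin2c probe lies on chromosome 11 at 115110483 to 115110542, on the minus strand, 5.48 Mb from that of Dcxr.

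Cdh16, the cadherin, had lowest, median and highest levels of -3.43, -3.26 and -2.84 in CON_VEH and of -4.42, -4.02 and -3.50 in mG4H_VEH. The STZ values were -4.20, -3.80 and -3.56 in CON and, in mG4H, -4.15, -3.97 and -3.75. The CON_VEH mice lay above all mice of CON_STZ and of mG4H_VEH, and the 3 lower groups overlapped. Between the STZ genotypes the difference was -0.12 (95% interval -0.41 to 0.18; adjusted p = 1). The STZ average of -0.28 did not pass (adjusted p = 0.0877), with -0.63 within CON and 0.08 within mG4H. It passed with slide as a block (-0.32, adjusted p = 0.0131), with quantile normalization (-0.38, adjusted p = 0.0188) and without mG4H_VEH replicate 4 (-0.32, adjusted p = 0.0484).

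The 7 measured markers of epithelium and mesothelium were set beside Cdh16. Their summed level lay between 2.29 and 3.31 in CON_VEH, 2.23 and 2.86 in mG4H_VEH, 2.78 and 3.35 in CON_STZ, and 2.57 and 3.53 in mG4H_STZ. Krt18, a keratin, rose with STZ by 0.82 (adjusted p = 0.0063) and Wt1, a mesothelial transcription factor, by 0.23 (adjusted p = 0.0149), the opposite sign to Cdh16. For mG4H_VEH against CON_VEH, the difference that chose Cdh16, 6 of the 7 markers had its negative sign. Msln, mesothelin, was at -1.79 and Krt19, another keratin, at -0.93, both above background on 24 arrays. Krt18 was at -0.36 and Wt1 at 0.01. Upk3b (-2.30), Upk1b (-0.94) and Krt8 (-0.63) were above background on only 13, 7 and 6 of the 24 arrays. Their part in the Cdh16 values was not tested. Of 11 measured cadherins 2 fell with STZ, Cdh13 by 0.34 ± 0.05 (SE) (adjusted p = 0.00044) and Cdh4 by 0.77 ± 0.19 (adjusted p = 0.0102). The median of that list was -0.16. The Cdh16 probe lies on chromosome 8 at 107138101 to 107138160, on the minus strand and 32.4 Mb from that of Cib3.

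Cib3, the calcium- and integrin-binding protein, had the largest vehicle difference of the members. The lowest, median and highest mice were at -1.44, -1.06 and -0.57 in CON_VEH and -3.72, -3.30 and -2.87 in mG4H_VEH. After STZ, CON mice had -3.52, -2.14 and -1.93 and mG4H mice -3.73, -3.02 and -2.66. The CON_VEH mice lay above all others, and 5 of 6 CON_STZ mice lay above all mG4H_STZ mice, with CON_STZ replicate 1 the exception.

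The genotype difference of Cib3 under STZ was -0.75 ± 0.23 (SE; 95% interval -1.24 to -0.27; adjusted p = 0.608), and -0.99 without CON_STZ replicate 1 (adjusted p = 0.174). Within slides 1, 2 and 3 it was -1.03, -0.22 and -1.02. STZ lowered Cib3 by 0.54 ± 0.17 (SE) on average (adjusted p = 0.0386). That average joins -1.29 within CON and 0.20 within mG4H. The call was lost with slide as a block (-0.53, adjusted p = 0.0644) and with the median as the scale (-0.62, adjusted p = 0.109), where the difference stayed about as large. With body weight as a covariate it shrank to -0.11 (adjusted p = 1), and over all genes 339 passed in place of 2908. Body weight at 4 weeks, in a unit that the labels do not give, lay between 27.9 and 36.4 in CON_VEH, 25.5 and 31.2 in mG4H_VEH, 21.8 and 27.8 in CON_STZ, and 21.1 and 28.1 in mG4H_STZ.

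Of 7 genes of the Cib family and the integrins it binds, 2 rose with STZ and 0 fell. They were the integrin subunits Itgb1, by 0.31 ± 0.07 (SE) (adjusted p = 0.00528), and Itga5, by 0.50 ± 0.14 (adjusted p = 0.0271). Its median was 0.27.

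Ralgapa2 restrains Ral GTPases, which help GLUT4 vesicles reach the cell surface. On its brightest probe the lowest, median and highest levels were 1.70, 1.96 and 2.08 in CON_VEH and 2.38, 2.60 and 2.72 in mG4H_VEH. In CON_STZ they were 1.44, 1.68 and 1.82, and in mG4H_STZ 1.64, 2.05 and 2.31. As with Lgi3, the mG4H_STZ mean of 1.98 and the CON_VEH mean of 1.94 differed by less than their SDs, and 4 of 6 mG4H_STZ mice lay above every CON_STZ mouse. The genotype difference under STZ was 0.35 ± 0.11 (SE; 95% interval 0.13 to 0.56; adjusted p = 0.563), with 0.11, 0.51 and 0.42 within slides 1, 2 and 3. STZ lowered Ralgapa2 by 0.45 ± 0.07 (SE) on average, 1.37-fold (adjusted p = 0.000515), with -0.31 within CON and -0.60 within mG4H. All mG4H_STZ mice lay below all mG4H_VEH mice. With median scaling the fall was 0.53 and did not pass (adjusted p = 0.128).

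The 3 Ralgapa2 probes disagreed in size. Probe A_55_P2105638, the brightest, lies on chromosome 2 at 146067040 to 146067099, and A_55_P2105633 and A_52_P556390 start at 146065615 and 146153116. Under vehicle the genotype difference was 0.63 on the brightest probe, 0.64 on A_52_P556390 and 0.32 on A_55_P2105633, and the vehicle groups overlapped on the latter probes. Under STZ these differences were 0.35, 0.51 and 0.08. The STZ averages were -0.45, -0.40 and -0.09, with adjusted p = 0.000647, 0.0632 and 0.787 when each probe was fitted on its own, so only the brightest probe passed.

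**Figure D3:**
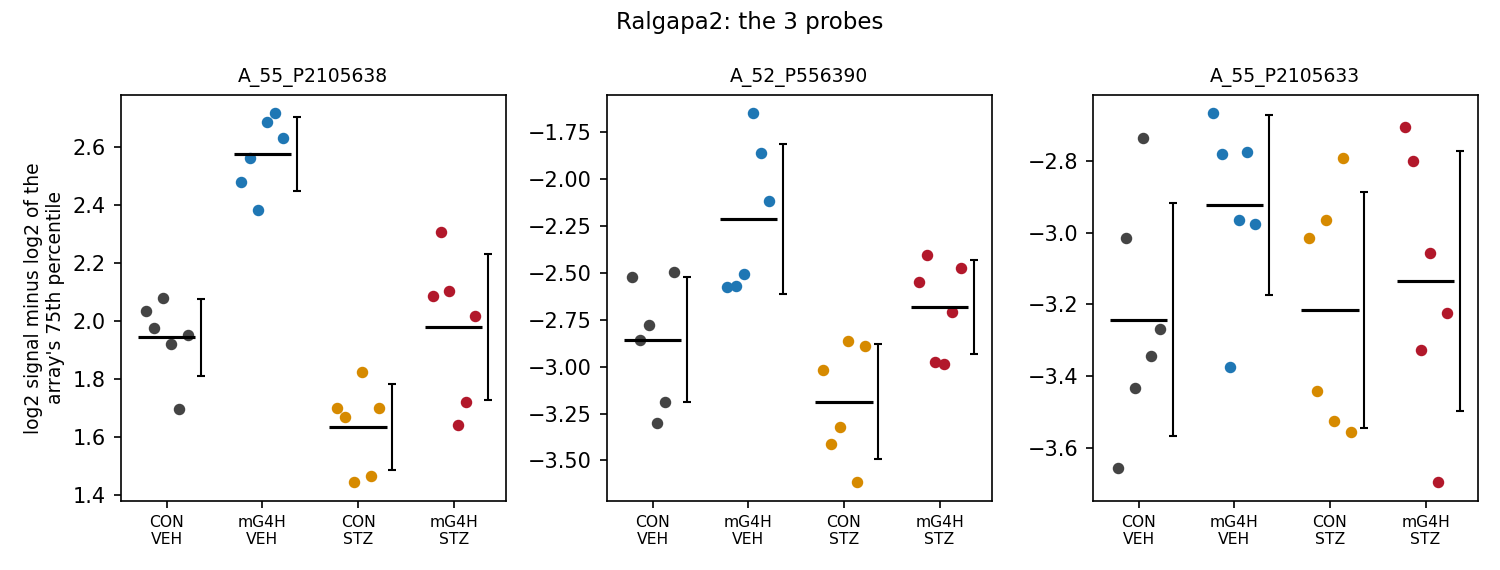
The 3 panels plot the Ralgapa2 probes, brightest first, with the log2 level against the array's 75th percentile on the vertical axis and the 4 groups along the horizontal axis. Points are single mice, lines are means and bars are the SD over 6 mice. The mG4H_VEH mean is the highest on each probe, and the groups separate least on A_55_P2105633.

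Of 20 genes for Ral GTPases, their regulators and the exocyst, 2 fell with STZ and 0 rose. Ralgps1, an activator of Ral, fell by 0.38 ± 0.06 (SE) (adjusted p = 0.0002) and Exoc3, an exocyst subunit, by 0.27 ± 0.08 (adjusted p = 0.0261). This list had a median of -0.07. Ralgps1 was 0.27 ± 0.08 higher in mG4H_STZ than in CON_STZ, which did not pass (adjusted p = 0.522).

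Dcxr encodes a reductase of dicarbonyls and L-xylulose in the uronate route of sugar metabolism. In CON_VEH the Dcxr levels (lowest, median, highest) were -1.76, -1.47 and -1.14, and in mG4H_VEH -2.40, -2.26 and -2.09. In CON_STZ they were -2.16, -1.93 and -1.70, and in mG4H_STZ -2.30, -1.93 and -1.60. The STZ groups overlapped, and their means of -1.92 and -1.95 lay between those of the vehicle groups. The genotype difference under STZ was -0.02 (95% interval -0.28 to 0.23; adjusted p = 1). STZ minus vehicle was -0.45 within CON and 0.31 within mG4H, which gave an average of -0.07 (95% interval -0.25 to 0.11; adjusted p = 0.724).

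Of 11 measured enzymes of uronate, xylulose and polyol metabolism, 1 rose and 2 fell with STZ. Khk, fructokinase, rose by 0.39 ± 0.07 (SE) (adjusted p = 0.00134). Cryl1, gulonate dehydrogenase, fell by 0.29 ± 0.09 (adjusted p = 0.0385) and Akr1b3, aldose reductase, by 0.20 ± 0.06 (adjusted p = 0.0327). As a whole the list had a median of 0.07.

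Cyb5, whose current symbol is Cyb5a, encodes cytochrome b5, which passes electrons to fatty acid desaturases and cytochrome P450 enzymes. Its lowest, median and highest levels were 5.11, 5.32 and 5.44 in CON_VEH and 4.76, 4.84 and 5.07 in mG4H_VEH. In CON_STZ they were 4.84, 4.94 and 5.10, and in mG4H_STZ 4.55, 4.87 and 4.995. Every CON_VEH mouse lay above every mouse of the other 3 groups, and those 3 overlapped. Under STZ the genotypes differed by -0.11 (95% interval -0.28 to 0.06; adjusted p = 1). STZ lowered Cyb5 by 0.18 ± 0.06 (SE) on average (adjusted p = 0.0438), from -0.35 within CON and -0.02 within mG4H. That call was lost with slide as a block (-0.15, adjusted p = 0.0977) and without slide 4 (-0.15, adjusted p = 0.133), at a difference close to that of all arrays.

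In the cytochrome b5 system 2 of 12 genes rose with STZ and 1 fell. The reductases Cyb5r2 and Cyb5r3 rose by 1.23 ± 0.30 (SE) (adjusted p = 0.0105) and 0.42 ± 0.10 (adjusted p = 0.0094). Scd2, a desaturase, fell by 0.32 ± 0.07 (adjusted p = 0.00472). The list's median was -0.00.

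Impa2 encodes an inositol monophosphatase, which frees inositol from its phosphate. Its lowest, median and highest levels were 1.86, 2.25 and 2.42 in CON_VEH and 2.69, 3.01 and 3.13 in mG4H_VEH. In CON_STZ they were 2.85, 3.08 and 3.43, and in mG4H_STZ 2.52, 3.14 and 3.50. All mice of the other 3 groups lay above all CON_VEH mice. mG4H_STZ minus CON_STZ was -0.05 (95% interval -0.34 to 0.25; adjusted p = 1). STZ raised Impa2 by 0.51 ± 0.10 (SE) on average, 1.42-fold (adjusted p = 0.00261), with 0.91 within CON and 0.10 within mG4H. With median scaling the rise was 0.43 and did not pass (adjusted p = 0.339). Of 12 inositol genes 0 passed limma's test for STZ, with 1 at an unadjusted p under 0.05, and the list's median STZ difference was 0.04.

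**Figure D4:**
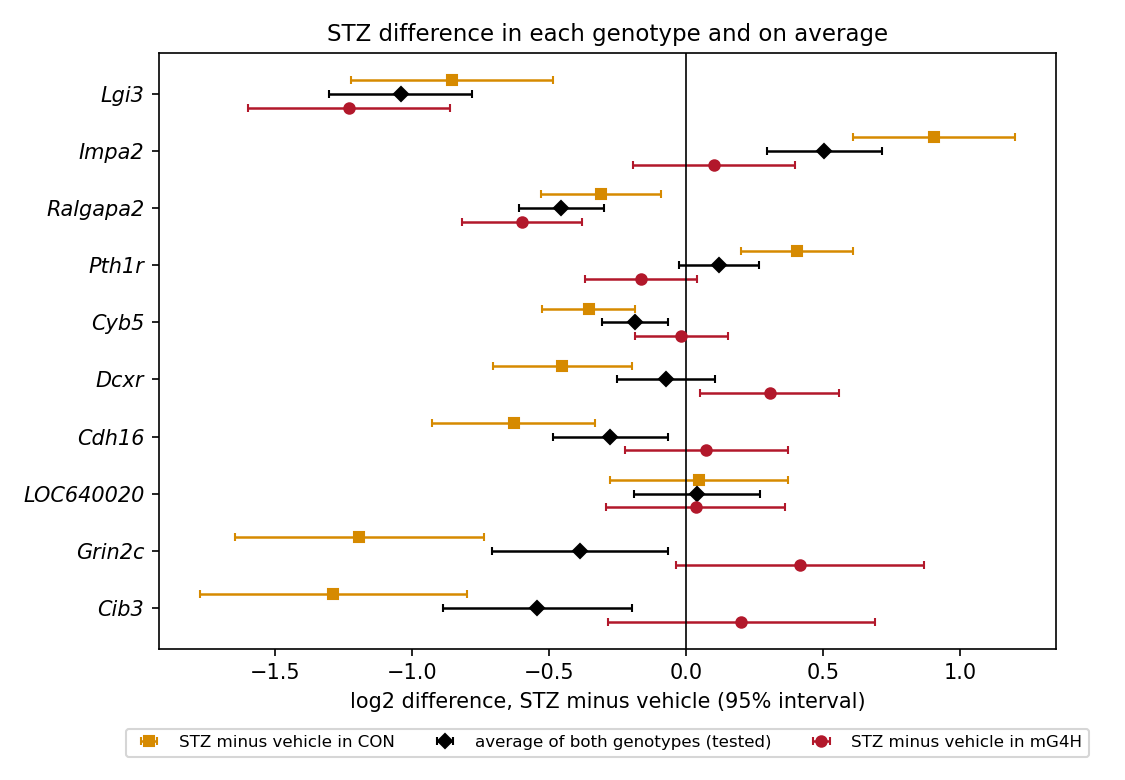
The horizontal axis is the log2 difference STZ minus vehicle and each row is 1 gene, with 95% intervals from the fit of 24 arrays. Squares are CON, circles mG4H and diamonds the average of both, the only one tested. Lgi3 and Ralgapa2 lie below 0 in both genotypes, LOC640020 lies near 0 in both, and for Impa2, Grin2c and Cib3 the CON value is the one far from 0.

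For Impa2, Cib3 and Cyb5, the STZ average had the sign of the vehicle genotype difference, and for Lgi3 and Ralgapa2 it had the opposite sign. For Impa2, Cdh16, Cyb5, Pth1r and Grin2c the means of CON_STZ, mG4H_VEH and mG4H_STZ were neighbours that differed by less than the larger of their SDs. The CON_VEH mean stood apart. Single mice did not always follow: mG4H_STZ replicate 2 for Pth1r (-0.32) and replicate 1 for Grin2c (-1.47) lay within the CON_VEH range. The STZ and transgene differences of control mice share the CON_VEH animals, so values that stand apart in that group enter both. By construction, chance deviations of those animals push both differences the same way. Set side by side, mG4H_VEH minus CON_VEH and CON_STZ minus CON_VEH were 0.75 and 0.91 for Impa2, -0.82 and -0.63 for Cdh16, -0.44 and -0.35 for Cyb5, 0.55 and 0.41 for Pth1r, -1.32 and -1.19 for Grin2c, and -0.78 and -0.45 for Dcxr. They were -2.24 and -1.29 for Cib3. The signs were opposite for Lgi3 (1.30 and -0.85), Ralgapa2 (0.63 and -0.31) and LOC640020 (-1.10 and 0.05).

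The genotype difference under STZ minus that under vehicle was 1.61 ± 0.31 (SE) for Grin2c, 1.49 ± 0.33 for Cib3 and -0.01 ± 0.22 for LOC640020. It was -0.37 ± 0.25 for Lgi3, -0.29 ± 0.15 for Ralgapa2 and -0.80 ± 0.20 for Impa2. These are descriptions, since the vehicle side chose the members and such a choice leans toward a smaller difference under STZ.

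Likeness across the 24 arrays was measured as the root mean square (RMS) difference of centred log2 values, over 15227 genes with a symbol that were well above background on all arrays. The gene closest to Ralgapa2 was Ppp1r3b, a glycogen-targeting phosphatase subunit, at 0.181, followed by Hs2st1, a heparan sulfate sulfotransferase, at 0.190, where the median gene lay at 0.443. Ccbl2, an aminotransferase gene, was closest to both Dcxr (0.191) and Grin2c (0.379), with Tmem120a (0.219) and the pyruvate carboxylase gene Pcx (0.405) next. For Impa2 they were Pex11a, a peroxisome membrane gene (0.249), and Acot4, a peroxisomal thioesterase gene (0.271). The closest to Cyb5 were Hint3 (0.133) and Cd320 (0.135), and to Cdh16 another cadherin-family gene, Fat2, and Gstm6, a glutathione transferase gene (both 0.244). The median gene lay at 0.416 for Dcxr, 0.664 for Grin2c, 0.492 for Impa2, 0.324 for Cyb5 and 0.473 for Cdh16. The RMS difference depends on a member's own spread, whose SD over the 24 arrays ran from 0.22 for Cyb5 to 0.98 for Cib3.

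For the remaining members, the Cib3 values lay nearest to Scgb1c1 (0.579) and Gcat (0.587), against a median of 0.994. Lgi3 was nearest to 2310015K22Rik (0.415) and Gsg1l (0.442), against 0.854. Pth1r was nearest to 2310022B05Rik (0.166) and Zbtb41 (0.179), against 0.346, and LOC640020 to Cst6 (0.416) and A630076J17Rik (0.422), against 0.657. These arrays share slides and groups, so likeness is a description of the 24 arrays.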

How the data were processed

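The deposited array files hold, per the file headers, Agilent Feature Extraction output of 1-colour arrays: the authors' processed intensity (background-subtracted, detrended, not scaled between arrays), mean and background intensity, and other marks for background, saturation and outliers. The submitters' processing notes also name limma. Probe positions are on mm9, per the file headers.

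Each processed signal was put on the log2 scale and divided by the 75th percentile of its array, without outlier spots and with repeated spots averaged. Of 55681 probes, 39763 were well above background on at least 6 of 24 arrays, and the brightest stood for its gene name. Missing values made up 0.0829%. A single limma fit (version 3.58.1, R 4.3.3) took in the 24 arrays with their group means and 20 residual degrees of freedom, and p was adjusted by Benjamini-Hochberg over 28232 genes (two-sided, threshold 0.05). The scripts were tested on simulated data. Reading and plotting used matplotlib 3.10.9, pandas 2.3.3, numpy 2.4.6 and Python 3.11.15.

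The members and gene lists were chosen with earlier results of these data known. The text names all members, Slc2a4, up to 4 genes past the threshold from each list (104 of 118 list genes were measured), the 2 genes most like each member and the cell type genes needed. Of the 10 members, 9 were found in the RefSeq table of current symbols. Cyb5 and Impa2 are given without their positions. Some single cell type markers are not reported here.

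The alternatives were quantile normalization, median scaling, normexp, other filters and probe rules, a trended robust prior, array weights, body weight, a block for replicate number, scan day or slide, stricter thresholds, fits of the contrast's own arrays, and leaving out slide 4 or each array in turn.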

Additional observations from a re-analysis of the deposited data

Results flagged for a closer look

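A group's extreme mouse was looked for in each of the 40 combinations of 10 members and 4 groups of 6 mice, by its gap to the nearest mouse as a share of the group's range (Dixon's test at the 95% level). Chance flags about 1 in 20 such groups. Cib3 in CON_STZ replicate 1 was at -3.52, where the next mouse was at -2.29, a gap of 0.772 of the range. LOC640020 in CON_VEH replicate 5 was at -3.06, where the next mouse was at -2.47, a gap of 0.643 of the range. Without that mouse the vehicle difference of LOC640020 was -1.21 in place of -1.10.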

How the results depend on the processing

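The count of members past the threshold for mG4H_STZ against CON_STZ was 1, 0 with median scaling, normexp or only the 12 STZ arrays (3, 4 and 4 at an unadjusted p under 0.05 in limma), 2 with array weights, and 1 to 2 when single arrays were left out (2 without CON_STZ replicate 3). With quantile normalization it was also 1, but the member was Lgi3 and not LOC640020. The count for the STZ average was 5, 1 with median scaling or a 1.5-fold minimum, and 3 with no filter on dim probes, array weights, slide 4 left out, scan day as a block, body weight as a covariate or a threshold of 0.01. It was 3 to 6 when single arrays were left out, among them 3 without CON_VEH replicate 3, 4 or 5, mG4H_VEH replicate 1, 2 or 3, CON_STZ replicate 5 or mG4H_STZ replicate 5. Over all genes, 3 of 28232 passed for mG4H_STZ against CON_STZ in the main fit. That number was 2 with median scaling, 0 with normexp and 0 with only the 12 STZ arrays. It was 4 with quantile normalization, 14 with array weights and 2 to 12 when single arrays were left out (12 without CON_STZ replicate 3). The cause of these changes was not tested. Over 38 alternatives Lgi3 kept its STZ call in 38, Impa2 and Ralgapa2 in 37, Cib3 in 20 and Cyb5 in 14.

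Signs turned only among values that did not pass. The STZ average of LOC640020 was -0.042 with quantile normalization and -0.034 with median scaling, and -0.014 to 0.081 when single arrays were left out. The genotype difference under STZ with single arrays left out ran from -0.094 to 0.046 for Dcxr, -0.097 to 0.037 for Pth1r and -0.13 to 0.063 for Impa2. Normexp shrank the vehicle difference to -1.31 for Cib3, 0.84 for Lgi3, -0.85 for Grin2c, -0.37 for Cdh16, -0.53 for Dcxr and -0.51 for LOC640020, and body weight gave -1.85 for Cib3. Over all genes, the count for the STZ average was 391 with median scaling and 339 with body weight as a covariate, in place of 2908. It was 2172 without slide 4, 2358 with scan day as a block, 3404 with array weights and 2497 of 36413 with no filter on dim probes. With single arrays left out it ran from 2316 to 3719.

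Deviations of mice with the same replicate number had correlations of -0.60 to 0.66 between the STZ groups, with slide not removed. Replicates 4 and 5, on different slides, were at -0.41 and -0.60. Replicates 1, 2, 3 and 6, each on a shared slide, were at 0.15, -0.04, 0.49 and 0.66. Since the values went along with the slides, they cannot decide whether the numbers pair the mice. With the replicate block the counts of members were 1 and 4, Cib3 being lost for STZ (adjusted p = 0.0621). Over all genes 2 and 2750 passed with that block, in place of 3 and 2908. The number of arrays limits the precision.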
